A study of Rattus norvegicus with 18 samples.

Results

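The 4 genes described here are ENSRNOG00000062283 on chromosome 1, ENSRNOG00000028543 and ENSRNOG00000022490 on chromosome 3, and ENSRNOG00000061943 on chromosome 7 of the rat. They are 4 of 32883 genes in the count table and 4 of its 9764 genes of a single exon, taken as genes whose exon length equals their span on the chromosome. They were chosen by their counts. Reads of them were counted in the visceral white adipose tissue (vWAT) of normotensive Wistar-Kyoto (WKY) rats. Few or almost none were counted in that of both groups of spontaneously hypertensive rats (SHRs). The counts of all 18 rats therefore selected them, and every WKY to SHR difference of these 4 genes is a description with no test. The 3 groups were 6 male WKY rats (normotensive controls), 6 male SHRs on tap water (SHR-Water) and 6 male SHRs given 1 g/L trimethylamine N-oxide in the drinking water (SHR-TMAO). Per the methods of the study, SHRs were 7 to 8 weeks old when assigned to water or TMAO, treatment lasted 22 weeks, and rats shared cages on a standard diet. The age of the WKY rats at the start is not given in the sources used here, and no cage is given in the labels. All rats came from 1 supplier, and 1 inbred strain stands for hypertension and 1 for normal pressure, so strain and blood pressure cannot be told apart.

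White adipose tissue stores triglyceride in adipocytes and also holds endothelial cells, preadipocytes, macrophages and other immune cells. The SHR strain was bred from Wistar-Kyoto stock by selecting for high blood pressure, so that the strains share part of their genome and differ in many inherited variants. TMAO is made in the liver from trimethylamine, a product of gut microbes. A gene of a single exon gives an RNA that needs no splicing; such genes include histone genes, many receptor genes, short non-coding RNAs and copies of spliced RNAs inserted back into the genome. Which of these kinds the 4 genes are was not analysed here, since the count table holds identifiers without names, and 0 of its identifiers matched the reference names used here. For the same reason the labelled tissue could not be checked against adipocyte markers.

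Each rat gave 1 library of 10774133 to 18874161 reads counted to genes, with 21505 genes at 1 count or more in at least 1 rat. Mitochondrially encoded genes, 37 in number, took 14.9% ± 5.12 of the reads of WKY rats, 21.4% ± 5.43 of those of SHR-Water rats and 16.8% ± 3.52 of those of SHR-TMAO rats (SD, n = 6 each). Levels are given as CPM, counts scaled to a common library size after TMM normalization, a method that sets the bulk of genes equal between libraries. In such bulk tissue, fewer cells of a type and less RNA per cell cannot be told apart.

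Of the 4 genes, ENSRNOG00000062283 had the widest gap between the strains. It lies on the minus strand at chr1:112074735-112076013 of the build Rnor_6.0 and is 1279 bases long. In the 6 WKY rats its raw counts were 551, 732, 661, 1036, 961 and 742. In the SHR-Water rats they were 0, 4, 2, 0, 0 and 1, and in the SHR-TMAO rats 3, 1, 1, 2, 2 and 6. Hence 3 of 12 SHR libraries held no read of this gene and no SHR library held more than 6. The WKY level of 53.0 ± 11.1 CPM compared with 0.0667 ± 0.0904 CPM for SHR-Water and 0.149 ± 0.0986 CPM for SHR-TMAO (SD, n = 6 each). The WKY rat with the lowest CPM still stood 111-fold above the SHR-TMAO rat with the highest and 157-fold above the highest SHR-Water rat. The summed counts of 4683 in WKY against 7 in SHR-Water gave a ratio of 733 after scaling, with an exact 95% interval of 356 to 1825. Against the 15 counts of SHR-TMAO the ratio was 341, with an interval of 206 to 609. These intervals, and those given for ENSRNOG00000061943, pool the reads of all rats in a group, so they cover counting error only. Differences between rats are left out. In WKY the coefficient of variation between rats was 20.9%, where counting error alone would give 3.58%. Reads without molecular identifiers are also not independent molecules, so counting error itself may be larger.

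ENSRNOG00000061943 was also close to zero in SHRs, from a lower level in WKY. It is the shortest of the 4 at 335 bases and lies on the plus strand at chr7:121342679-121343013. Its raw counts in WKY rats were 152, 110, 99, 158, 175 and 179. In SHR-Water they were 0, 1, 0, 0, 2 and 0, and in SHR-TMAO 6, 2, 2, 0, 0 and 1. No read was seen in 6 of 12 SHR libraries, and SHR-TMAO replicate 1 held 6 of the 14 reads found in all SHRs. From 10.1 ± 2.79 CPM in WKY rats the level went to 0.0326 ± 0.0569 CPM among SHR-Water rats and 0.121 ± 0.155 CPM among SHR-TMAO rats (SD, n = 6 each). The scaled ratio of summed counts was 319 for WKY over SHR-Water, where only 3 reads left an exact 95% interval of 109 to 1550. It was 86.6 for WKY over SHR-TMAO, with an interval of 48.2 to 174.

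ENSRNOG00000028543 had the highest level in WKY and stayed detectable in every SHR. It spans chr3:59408546-59410211 on the plus strand, 1666 bases. Raw counts in WKY ran from 935 to 3556 with a median of 1670, those in SHR-Water from 46 to 86 with a median of 60, and those in SHR-TMAO from 78 to 154 with a median of 95.5. On the CPM scale WKY rats lay between 84.2 and 174 (median 104), SHR-Water rats between 3.16 and 4.85 (median 3.44) and SHR-TMAO rats between 4.33 and 8.19 (median 6.29). Thus the lowest WKY rat was 17.4-fold above the highest SHR-Water rat and 10.3-fold above the highest SHR-TMAO rat. The group means were 122 ± 40.2, 3.68 ± 0.647 and 6.23 ± 1.53 CPM (SD, n = 6 each), so SHR-Water held 3.01% and SHR-TMAO 5.09% of the WKY mean. Counts of this gene in SHRs were thus low but not absent, with 977 reads in the 12 SHR libraries. Whether these reads arose from this gene, and whether reads of both strains map equally well, was not tested.

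ENSRNOG00000022490 behaved like ENSRNOG00000028543 in that some reads were counted in all 12 SHRs. It is 438 bases long, on the minus strand at chr3:9096044-9096481, and so sits far from the other gene of chromosome 3. Raw counts ran from 323 to 487 in WKY (median 382.5), from 12 to 32 in SHR-Water (median 23.5) and from 22 to 35 in SHR-TMAO (median 26.5). CPM ranged from 17.5 to 34.1 among WKY rats, from 0.824 to 1.75 among SHR-Water rats and from 1.27 to 2.07 among SHR-TMAO rats. WKY rats did not overlap with either SHR group, while the SHR groups overlapped each other. The means were 27.3 ± 5.80, 1.38 ± 0.364 and 1.70 ± 0.341 CPM (SD, n = 6 each), which put SHR-Water at 5.06% and SHR-TMAO at 6.22% of WKY.

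**Figure D1:**
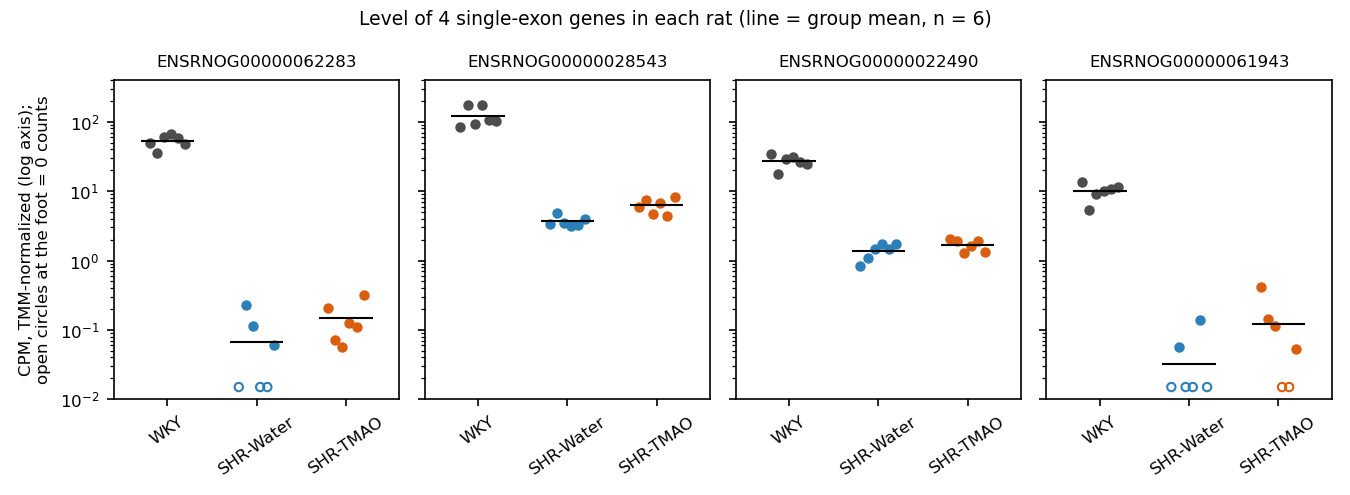
Level of each gene in each rat, in TMM-normalized CPM on a log axis, for WKY, SHR-Water and SHR-TMAO; points are rats, lines are group means, and open circles at the foot are rats with 0 counts. ENSRNOG00000062283 and ENSRNOG00000061943 fell to 0 counts in some SHRs, whereas ENSRNOG00000028543 and ENSRNOG00000022490 stayed at 0.824 CPM or more in every SHR.

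In edgeR's fit over all genes, the log2 fold change of SHR-Water over WKY was -9.43 (SE 0.42) for ENSRNOG00000062283, -8.05 (SE 0.54) for ENSRNOG00000061943, -5.07 (SE 0.23) for ENSRNOG00000028543 and -4.32 (SE 0.23) for ENSRNOG00000022490. For SHR-TMAO over WKY the same genes stood at -8.39 (SE 0.30), -6.38 (SE 0.54), -4.30 (SE 0.24) and -4.01 (SE 0.20). The comparisons share the WKY rats. Each SE here and below is the log2 fold change divided by the square root of the edgeR test statistic, not a separate estimate. For ENSRNOG00000062283 and ENSRNOG00000061943 in SHR-Water, the counting intervals given above are wider than these SE values allow. The fitted values of the first pair rest on very few SHR reads and moved with the prior count, the small number added to every count, to -8.10 and -6.03 against SHR-Water when it was raised to 2. They also moved with single rats: without SHR-Water replicate 2 that of ENSRNOG00000062283 was -10.20, and that of ENSRNOG00000061943 was -9.02 without SHR-Water replicate 5 and -7.22 without SHR-TMAO replicate 1. All 4 were called lower in both comparisons and had groups that did not overlap, as the choice of genes required. Among all genes tested, 2.13% were called lower in SHR-Water than in WKY (277 of 13017) and 2.17% in SHR-TMAO than in WKY (278 of 12833), where called means an adjusted p under 0.05 and a log2 fold change of 1 or more in size. Groups without overlap and lower in the SHRs were found for 2.56% and 2.08% of genes tested.

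Levels of different genes were compared per length, as FPKM, reads per kilobase of exon at a common library size. In WKY the order was ENSRNOG00000028543 at 73.7 ± 24.6 FPKM, ENSRNOG00000022490 at 62.2 ± 11.8 FPKM, ENSRNOG00000062283 at 41.3 ± 6.94 FPKM and ENSRNOG00000061943 at 30.0 ± 8.03 FPKM (SD, n = 6 each). The ranges of all neighbours in this order overlapped. ENSRNOG00000022490 stood above ENSRNOG00000062283 in 6 of 6 WKY rats, ENSRNOG00000028543 above ENSRNOG00000022490 in 4, and ENSRNOG00000062283 above ENSRNOG00000061943 in 5. None of the 4 was a rare transcript in WKY: they stood at the 94.4th, 93.5th, 90.7th and 88.1th percentile of mean FPKM among the 19456 genes above 0 in that group. In SHR-Water, ENSRNOG00000022490 (3.31 ± 1.09 FPKM) and ENSRNOG00000028543 (2.29 ± 0.543 FPKM) came first, at percentiles 56.0 and 50.6 of 19617 genes above 0. ENSRNOG00000061943 (0.0936 ± 0.158 FPKM) and ENSRNOG00000062283 (0.0576 ± 0.0776 FPKM) followed at percentiles 18.7 and 14.5. In SHR-TMAO the means had the same order, at 3.74 ± 0.660, 3.62 ± 0.854, 0.351 ± 0.450 and 0.114 ± 0.0773 FPKM (SD, n = 6 each). Single rats often departed from it. ENSRNOG00000022490 stood above ENSRNOG00000028543 in 4 of 6 SHR-Water rats and 3 of 6 SHR-TMAO rats. For ENSRNOG00000061943 above ENSRNOG00000062283 it was 1 of 6 and 3 of 6. In both SHR groups the step between ENSRNOG00000028543 and ENSRNOG00000061943 was the sole one at which the ranges did not overlap. Between the upper and the lower pair the mean FPKM fell 24.5-fold in SHR-Water and 10.3-fold in SHR-TMAO, against 1.51-fold in WKY, where ENSRNOG00000022490 and ENSRNOG00000062283 overlapped. The SHR steps rest on the 3 and 11 reads of ENSRNOG00000061943: without SHR-Water replicate 5 the first was 65.6-fold, and without SHR-TMAO replicate 1 the second was 20.3-fold.

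Rats of the WKY group also differed among themselves. ENSRNOG00000062283 had a coefficient of variation of 20.9%, ENSRNOG00000022490 of 21.3% and ENSRNOG00000061943 of 27.8%, against medians of 18.7%, 19.9% and 26.3% among genes within 1.5-fold of their level. For ENSRNOG00000028543 the value was 32.9%, at the 84.5th percentile of 1021 genes of like level, whose median was 19.6%. WKY replicate 2 had the lowest CPM of ENSRNOG00000062283 (35.5), ENSRNOG00000022490 (17.5) and ENSRNOG00000061943 (5.33). For ENSRNOG00000028543, however, that rat stood with replicate 4 at the top of the group (172 and 174 CPM).

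Setting SHR-TMAO beside SHR-Water asked whether the low counts of these genes differed with TMAO. The choice of genes required low counts in both SHR groups, so that a gene strongly raised by TMAO could not have been picked, but it did not use the difference between them. ENSRNOG00000028543 was 1.69-fold higher in SHR-TMAO, a log2 fold change of 0.79 (SE 0.20), and missed the threshold with an adjusted p of 0.0841 in edgeR. CPM in SHR-TMAO rats was 5.93, 7.54, 4.72, 6.65, 4.33 and 8.19, and 4 of 6 were above every SHR-Water rat while 6 of 6 were above the SHR-Water median. An exact two-sided permutation test of this gene alone gave p = 0.00649, unadjusted, where the smallest value that 6 against 6 rats allow is 0.00216. This test, like the edgeR fit, takes rats as independent. Rats shared cages, TMAO was given in the water, and no cage is given in the labels. With raw library totals the fold was 1.58 and the exact permutation p 0.0108, and with totals that left out mitochondrial genes the exact permutation p was 0.0130. Over 17 other settings of the fit the log2 fold change ran from 0.70 to 0.88 and the adjusted p from 0.0105 to 0.323. The adjusted p was under 0.05 in 3 of them: DESeq2 (0.0105), leaving out replicate 1 of SHR-TMAO (0.0329) and leaving out that of SHR-Water (0.0385). The log2 fold change reached 1 in 0 of the 17. In the same comparison 0.0% of 12852 genes tested were called by edgeR, 3212 genes (25.0%) had an unadjusted p under 0.05, and DESeq2 called 405. By p, ENSRNOG00000028543 ranked 212 of the 12852.

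ENSRNOG00000022490 was 1.23-fold higher in SHR-TMAO, with a log2 fold change of 0.32 (SE 0.25) and an adjusted p of 0.430 in edgeR. Its exact permutation p was 0.154, and 3 of 6 SHR-TMAO rats stood above every SHR-Water rat. The other pair failed the filter on low counts in this comparison. ENSRNOG00000062283 had 15 reads in SHR-TMAO against 7 in SHR-Water (exact permutation p = 0.167), and ENSRNOG00000061943 had 11 against 3 (exact permutation p = 0.229). Without the filter, edgeR gave them adjusted p of 0.466 and 0.382. In consequence 0 of the 4 genes were called by edgeR and 0 by DESeq2, 1 had an unadjusted p under 0.05 by either tool, and for the rarer pair no change was detectable at this depth.

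Gene length moved with this comparison. The rank correlation across 13325 genes of a gene's level in a library, relative to the mean of all libraries, with its length averaged -0.162 ± 0.171 in SHR-TMAO and 0.193 ± 0.287 in SHR-Water (SD, n = 6 each). The libraries of the groups overlapped, from -0.356 to 0.114 and from -0.211 to 0.449, and genes are not independent replicates. Among 274 genes tested within 1.2-fold of the length of ENSRNOG00000022490 the median log2 fold change was 0.48, and 61.3% of them rose more than this gene's 0.32. Among 2454 genes of like length to ENSRNOG00000028543 the median was 0.11, with quartiles of -0.12 and 0.30, and 2.65% exceeded its 0.79. The part of length in these differences was not tested.

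**Figure D2:**
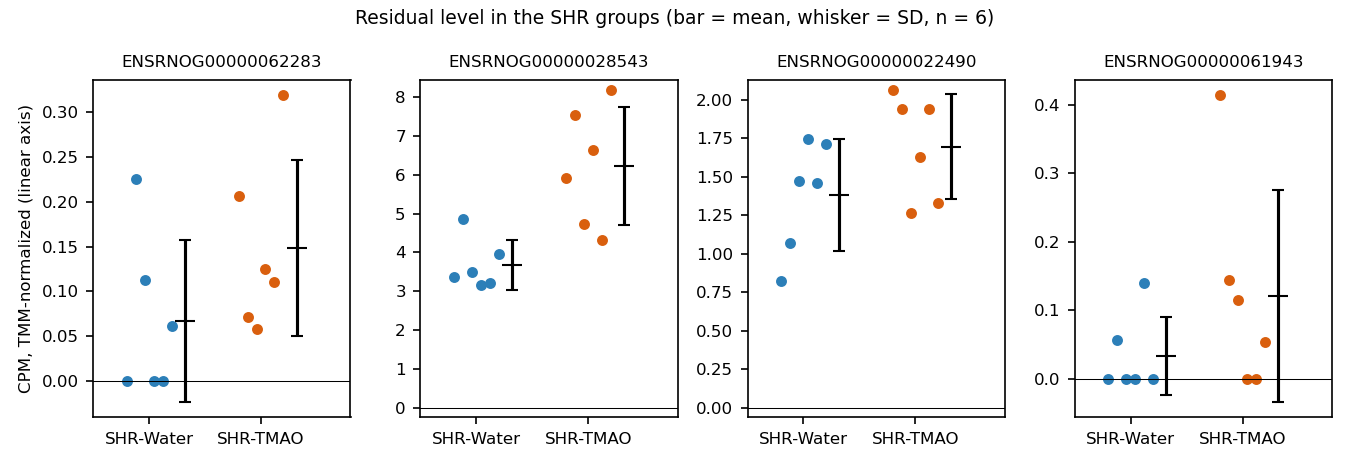
Level of each gene in SHR-Water and SHR-TMAO rats, in TMM-normalized CPM on linear axes that differ between panels; points are rats, horizontal bars are means and whiskers the SD (n = 6). ENSRNOG00000028543 was above every SHR-Water rat in 4 of 6 SHR-TMAO rats, and for the other 3 genes the groups overlapped more widely.

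Genes that overlap the 4 on the opposite strand were then sought, since antisense transcription can be mistaken for, or act upon, the RNA of its partner. A single such gene exists in the annotation used. ENSRNOG00000021507 lies at chr1:111849998-113527735 on the plus strand, with 12 listed exon entries, which may repeat between transcripts. It contains ENSRNOG00000062283 within its intron at chr1:112056980-113419724, so that the exons of the genes do not overlap. It had 0 counts in all 18 libraries, which allows up to 0.0104 CPM over the 18, and could not be tested. For the other 3 genes no gene of either strand overlapped. The nearest genes of the opposite strand were ENSRNOG00000060690 at 11944 bases from ENSRNOG00000028543, ENSRNOG00000059168 at 12766 bases from ENSRNOG00000022490 and ENSRNOG00000056726 at 28400 bases from ENSRNOG00000061943. They held 1, 20 and 3 counts over the 18 libraries, under the filter in each case. No annotated opposite-strand gene that overlaps any of the 4 therefore had a count in either strain. Counting was set to read strand, while the sources used here do not state that the library kit kept it.

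The nearest opposite-strand genes with enough reads for a test lay farther off, and none of them was called in either comparison with WKY when all rats were in the fit. ENSRNOG00000016896, 31114 bases from ENSRNOG00000061943, stood at 528 ± 67.3 CPM in WKY rats, at 459 ± 105 CPM in those of SHR-Water and at 597 ± 104 CPM in those of SHR-TMAO (SD, n = 6 each). Its log2 fold changes against WKY were -0.22 (adjusted p = 0.408) and 0.17 (adjusted p = 0.517) in edgeR. ENSRNOG00000018457, 83459 bases from ENSRNOG00000022490, stood at 214, 196 and 194 CPM in the same groups, with log2 fold changes of -0.14 and -0.15. ENSRNOG00000060479, 235804 bases from ENSRNOG00000028543, gave 0.70 (adjusted p = 0.375) and -0.28 (adjusted p = 0.740). Without WKY replicate 2 alone these became 1.41 (adjusted p = 0.0265), a call, and 0.40 (adjusted p = 0.277), a turn in direction. ENSRNOG00000021484, 2098729 bases from ENSRNOG00000062283, gave 0.59 (adjusted p = 0.319) and 0.28 (adjusted p = 0.648).

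On the same strand, the closest expressed gene to any of the 4 was ENSRNOG00000017285, which begins 7952 bases from ENSRNOG00000061943. WKY rats had 21.3 ± 2.38 CPM of it, SHR-Water rats 18.4 ± 3.84 CPM and SHR-TMAO rats 19.0 ± 2.13 CPM (SD, n = 6 each), with log2 fold changes of -0.23 (SE 0.15, adjusted p = 0.359) and -0.17 (SE 0.12, adjusted p = 0.421) in edgeR. Over that short distance the log2 fold changes in SHR-Water went from -8.05 to -0.23. ENSRNOG00000061943 was chosen for its low SHR counts and ENSRNOG00000017285 by position, so a step was built in. ENSRNOG00000024846, another gene of a single exon and 58102 bases from ENSRNOG00000022490, stood at 8.40 ± 2.69, 11.7 ± 7.53 and 11.8 ± 3.88 CPM in the 3 groups (SD, n = 6 each), with adjusted p of 0.448 and 0.299. ENSRNOG00000062283 lies in a stretch without detected genes: 4 genes within 500 kb of it all had 0 counts, and the nearest tested gene toward lower coordinates, ENSRNOG00000037137, was 4700928 bases away. That gene was higher in SHR-TMAO than in WKY (log2 fold change 1.03, adjusted p = 0.0127 in edgeR), a call that ended without SHR-TMAO replicate 4 (0.91) and without WKY replicate 1 (0.95) or 6 (0.99). In SHR-Water it gave 0.54 with an adjusted p of 0.215.

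Within 500 kb of the 4 genes lie 86 other genes, 65 of them with at least 1 count. Of 44 tested between SHR-Water and WKY 2 were called, and the same 2 were called of 43 between SHR-TMAO and WKY, against 3.42% and 3.62% of all genes tested. The median log2 fold change of these neighbours was 0.07 and -0.05, and that of all genes -0.00 and -0.02. Both called genes lie on chromosome 3, 344720 and 351452 bases from ENSRNOG00000022490, and overlap each other on opposite strands. ENSRNOG00000016033 (plus strand, chr3:8741766-8744592) fell from 37.6 ± 11.9 CPM in WKY to 9.90 ± 4.70 CPM with water and 10.3 ± 1.46 CPM with TMAO (SD, n = 6 each). Its log2 fold changes were -1.95 (SE 0.30, adjusted p = 0.00168) and -1.88 (SE 0.19, adjusted p = 3.11e-05) in edgeR. ENSRNOG00000025711 (minus strand, chr3:8743882-8751324) fell from 29.0 ± 7.37 to 13.8 ± 4.60 and 13.7 ± 1.69 CPM, with log2 fold changes of -1.09 (SE 0.24, adjusted p = 0.0141) and -1.09 (SE 0.17, adjusted p = 0.00168). ENSRNOG00000025711 lost its call in SHR-Water without SHR-Water replicate 2 (-0.96) or 4 or WKY replicate 4 (-0.96), and in SHR-TMAO without WKY replicate 4 (-0.96). Without WKY replicate 2, 6 neighbours were called between SHR-Water and WKY, among them ENSRNOG00000060479 at 1.41 and ENSRNOG00000047244 at 1.45. In both comparisons every tested neighbour lay within 1.95 of zero on the log2 scale, whereas each of the 4 genes lay at -4.01 or below. The 4 genes were chosen for that gap and the neighbours by position, so this contrast was built in. Between SHR-TMAO and WKY, DESeq2 called 3 neighbours lower, and edgeR without the filter also 3. Neighbours under the filter are not covered. Of these, ENSRNOG00000031434 is a single-exon gene 140506 bases from ENSRNOG00000022490. It had 1 to 8 counts in WKY, 0 to 4 in SHR-Water and 0 in SHR-TMAO. ENSRNOG00000055886 went the other way, with 0, 0 to 3 and 0 to 1.

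**Figure D3:**
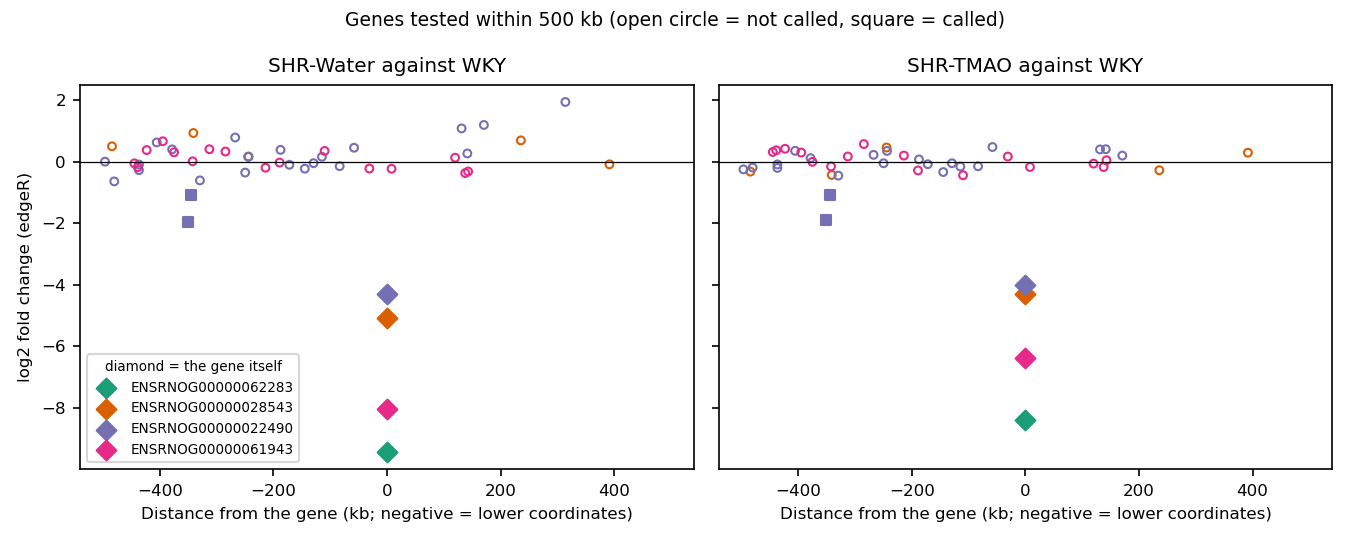
Log2 fold change of SHR-Water and SHR-TMAO over WKY for each gene tested within 500 kb of the 4 genes, against distance in kb; diamonds at 0 are the 4 genes, circles are neighbours not called and squares are neighbours called. Neighbours lay between -1.95 and 1.94 against SHR-Water and between -1.88 and 0.58 against SHR-TMAO. The 4 genes lay at -4.01 or below, a gap for which they were chosen.

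Among genes of a single exon, 27 of 714 tested (3.78%) were called lower in SHR-Water than in WKY and 23 of 691 (3.33%) lower in SHR-TMAO than in WKY. Genes called higher were 19 (2.66%) and 22 (3.18%), and among genes of several exons 2.03% and 2.1% were called lower. The 27 and the 23 include the 4 genes chosen, which were picked for being lower. In SHR-TMAO the lower count stands above the higher one only with them. The single-exon genes tested were shorter, with a median exon length of 747 bases against 2411 for genes of several exons in the SHR-Water comparison, and length moved with that comparison too. Its rank correlation with level, described above, averaged -0.0707 ± 0.220 in WKY against 0.193 ± 0.287 in SHR-Water (SD, n = 6 each), and the median log2 fold change was -0.46 among 278 genes of like length to ENSRNOG00000022490 and -0.31 among 181 of like length to ENSRNOG00000061943. Against SHR-TMAO those medians were 0.05 and 0.03. The part of length in these shares was not tested. The count depended on single libraries in SHR-Water, where it was 17 without SHR-Water replicate 2 or 4, 14 without WKY replicate 1, 16 without WKY replicate 5 and 57 without WKY replicate 2. In SHR-TMAO it was 46 without WKY replicate 2 and 39 without WKY replicate 4. In both comparisons 13 genes of a single exon were called lower. A high rank of the 4 genes was built in, as they were chosen on these same counts. Ranked by the smaller of the WKY to SHR folds of mean CPM, the 4 genes chosen came first among the 13, at 357, 83.1, 19.6 and 16.1. ENSRNOG00000022490 at 16.1 was thus the last inside, and the first outside was ENSRNOG00000030106 at 6.51. The latter, 558 bases on chromosome 10, had means of 6.72 ± 3.95, 1.03 ± 0.571 and 0.739 ± 0.262 CPM for WKY, SHR-Water and SHR-TMAO (SD, n = 6 each).

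**Figure D4:**
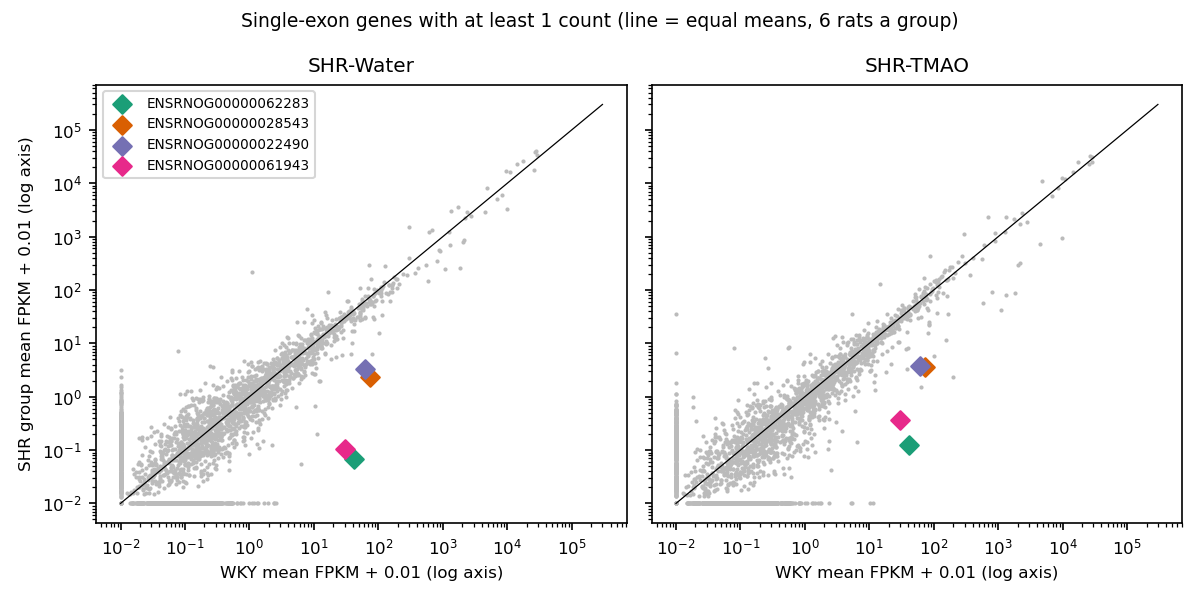
Mean FPKM of every single-exon gene with a count in SHR-Water or SHR-TMAO against its mean in WKY, with 0.01 added, on log axes; the line marks equal means and diamonds are the 4 genes chosen. The 4 diamonds lie below the line at 30.0 to 73.7 FPKM in WKY, at 3.74 FPKM or less in both SHR groups.

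The limits that the 4 genes themselves set, a WKY mean of at least 10.1 CPM and a fold of at least 16.1 over both SHR groups, were met by 6 genes of the whole table, out of 7606 with such a WKY level. The others were ENSRNOG00000030689 on chromosome 1, with 14 listed exon entries, and ENSRNOG00000045989 on chromosome 10, with 3. ENSRNOG00000045989 ran from 143 to 732 counts in WKY and from 0 to 4 in each SHR group. ENSRNOG00000030689 had 86 to 308 counts in WKY rats, 0 to 17 with water and 1 to 43 with TMAO among SHRs. The mirrored limits, low in WKY and present in both SHR groups, were met by 4 genes, of which ENSRNOG00000019050 on chromosome 1 has a single exon. WKY rats had 0 to 4 counts of it, SHR-Water rats 179 to 388 and SHR-TMAO rats 127 to 447.

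The genes most like each of the 4 across the 18 libraries were mostly the other members. All 4 were chosen for the same gap between WKY and SHRs, so their likeness follows from the choice. By Pearson's r of log2(CPM + 1), ENSRNOG00000061943 and ENSRNOG00000022490 were each other's closest among 13324 genes (0.992), and ENSRNOG00000062283 was closest to ENSRNOG00000022490 (0.992). ENSRNOG00000028543 was closest to ENSRNOG00000062283 (0.982). In turn, ENSRNOG00000028543 ranked only 4th for ENSRNOG00000062283, 6th for ENSRNOG00000022490 and 9th for ENSRNOG00000061943. Outside the 4, the genes named by this measure were ENSRNOG00000058238 on chromosome 20 (0.984 with ENSRNOG00000062283), ENSRNOG00000045989 (0.978 with ENSRNOG00000022490) and ENSRNOG00000043176 on chromosome 4 (0.986 with ENSRNOG00000061943). The points fall into WKY and SHR clusters and share libraries, so that these values describe the gap between strains and carry no p.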

How the data were processed

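The authors isolated RNA of vWAT with TRIzol, made libraries with SMART technology and sequenced them on an Illumina NovaSeq. The deposited values are raw counts per gene, not normalized. Per the file headers the authors counted them with featureCounts 1.6.3 on exons of the Ensembl release 96 annotation of Rnor_6.0, with strand setting 2, and the submitters' notes add cutadapt 2.5 and HISAT2 2.1.0. The methods of the study name GENCODE as annotation, FPKM as normalization and DESeq2. No option for reads that map to several places is in the recorded command, and by default featureCounts leaves such reads out. Copies of the 4 genes elsewhere in the genome could take or lose reads in this way; sequences were not analysed here, so the counts are uncertain in that respect.

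The 4 genes and all lists were chosen with earlier results of these data known. Groups came from the sample labels. The members, genes overlapping them, the nearest tested gene on each side, called genes within 500 kb and the 3 genes of highest correlation were named. The main test was edgeR 4.0.16 quasi-likelihood (TMM, filterByExpr, 2 groups per fit, Benjamini-Hochberg adjustment over all genes tested), run in R 4.3.3. DESeq2 1.42.0, RLE factors, no filter, all 18 libraries, a block on replicate number and leaving out each library were alternatives. On simulated data with 200 genes changed by a log2 of 2, edgeR recovered 172 with 3 false calls among 13017 genes for SHR-Water against WKY, 177 with 7 among 12833 for SHR-TMAO against WKY and 184 with 3 among 12852 for SHR-TMAO against SHR-Water. CPM used TMM factors over all 18 libraries, and FPKM used exon length and raw totals. Single genes were compared with exact permutation tests over rats in SciPy 1.17.1. Replicates are separate rats, and no 2 libraries agreed within counting noise. Library totals ran from 10774133 to 18874161.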

Additional observations from a re-analysis of the deposited data

Results flagged for a closer look

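A rat far from the other 5 of its group was found in 3 of 36 groups tested by Dixon's criterion, and chance alone gives about 1 in 20. ENSRNOG00000061943 stood at 0.414 CPM in SHR-TMAO replicate 1, from 6 reads, while the other 5 SHR-TMAO rats ran from 0 to 0.144 CPM. The remaining pair are neighbours of the genes on chromosome 3, and both concern WKY replicate 2. ENSRNOG00000060479 stood at 25.7 CPM in that rat against 3.65 to 6.85 CPM in the other WKY rats, and ENSRNOG00000047244 at 1.598 CPM against 0.384 to 0.833 CPM.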

How the results depend on the processing

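Of 256 values of the comparisons under other settings 224 stayed within their limits, 32 moved and 0 turned direction. Of 382 values of single named genes 370 kept their direction and their side of the threshold, 7 lost a call, 2 gained one and 3 turned direction, none of them called. The turns were ENSRNOG00000060479 in SHR-TMAO against WKY, from -0.28 to 0.40 without WKY replicate 2 (-0.43 to 0.40 over single libraries left out) and to 0.0300 with the replicate block, and ENSRNOG00000001514 in SHR-Water against WKY, from 0.17 to -0.00829 without SHR-Water replicate 2 (-0.00829 to 0.38 over single libraries left out). DESeq2 called 865, 802 and 405 genes in SHR-Water against WKY, SHR-TMAO against WKY and SHR-TMAO against SHR-Water, where edgeR called 445, 464 and 0, and it called 61 and 64 genes of a single exon lower than WKY, where edgeR called 27 and 23. Without the filter edgeR called 469 genes in SHR-Water against WKY, 28 of a single exon, and 0 between the SHR groups. A fit of all 18 libraries called 35 single-exon genes lower in SHR-TMAO than in WKY and 1 gene between the SHR groups. The cause was not tested.

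A prior count of 2 gave log2 fold changes of -8.10 and -7.59 for ENSRNOG00000062283 and of -6.03 and -5.40 for ENSRNOG00000061943 in SHR-Water and SHR-TMAO against WKY. Leaving out 1 library at a time gave 1 to 6 neighbours called in SHR-Water and 1 to 2 in SHR-TMAO, 14 to 57 and 16 to 46 single-exon genes called lower, and 337 to 1278, 363 to 646 and 0 to 686 genes called in the 3 comparisons. The highest of these came without WKY replicate 2 (1278) and without SHR-Water replicate 1 (686), and 442 genes were called between the SHR groups without SHR-TMAO replicate 1. The log2 fold changes then ran from -10.20 to -9.12 and -8.78 to -8.20 for ENSRNOG00000062283, and from -9.02 to -7.78 and -7.22 to -6.10 for ENSRNOG00000061943. Those of ENSRNOG00000028543 (-5.16 to -4.91 and -4.39 to -4.16) and ENSRNOG00000022490 (-4.38 to -4.21 and -4.11 to -3.93) moved less than their spread between rats. Calls among the 4 genes between the SHR groups were 0 under every setting run.

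With the replicate number as a block, 591, 341 and 0 genes were called, with 29 and 18 single-exon genes lower, 2 and 2 neighbours, and 0 of the 4 genes between the SHR groups. The numbers were not taken to pair the rats. Same-numbered deviations correlated over 0.1 in 5 of 6 pairs for SHR-Water and WKY (-0.330 to 0.569). They did so in 1 of 6 for SHR-TMAO and WKY (-0.241 to 0.308) and 0 of 6 for the SHR groups (-0.409 to -0.00828). The same number gave the best match in 1, 2 and 0 of the 6 pairs, in that order. A link by number between SHR-Water and WKY was not tested further. Calls on opposite-strand genes could not be recomputed, since that gene had 0 counts.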
